A study of Mus musculus with 11 samples.

Results

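The genes described are 10 digestive enzymes and cofactors of the pancreatic acinar cell, taken from the count table by their symbols: *Prss2*, *Ctrb1*, *Cela1*, *Cela2a*, *Cela3b*, *Cpa1*, *Cpb1*, *Pnlip*, *Clps* and *Cel*. Of the 55401 genes counted, these are 10, and all 10 were among the 17424 genes that passed the filter on low counts. Acinar cells are the exocrine cells that surround the islets and secrete food-digesting enzymes into the duct. Proteases are made there as inactive zymogens and packed into granules, and their genes are switched on together by a set of transcription factors that includes PTF1A and RBPJL. Endocrine cells of the islet are not known for making these enzymes, so the transcripts are commonly read in islet work as a sign of exocrine material.

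The study was designed to compare beta cells with and without activity of the imprinted gene *Nnat* with each other and with the other cells of the islet. Its adult RNA-seq comprised 11 libraries from FACS-sorted cells of 4 mice. By label 4 of them held NNAT-positive and 4 NNAT-negative beta cells, and 3 held non-beta cells. All mice were male C57BL6/J on chow and carried the same alleles, a Cre driven by the rat insulin promoter (RIP), a STOP-tdTomato reporter that this Cre switches on and an *Nnat*-EGFP transgene. The age was 10 weeks in the labels, and the study's text gives a younger one. Replicate numbers stand for mice, so each of mice 1, 2 and 3 gave the 3 fractions, and mouse 4 gave only the 2 beta cell fractions. Beta cells were therefore defined by past activity of a rat insulin promoter fragment, and the 2 beta fractions by a transgene, not by the NNAT protein. Islets were hand-picked after a density gradient, dissociated and sorted, and exocrine cells had no gate of their own in the labels.

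Total counts lay between 30420352 and 43238376 per library, so that the floor of 3 counts corresponded to at most 0.0986 CPM (counts scaled to library size). Levels are CPM on library sizes scaled by the trimmed mean of M values (TMM). *Gcg*, the alpha cell hormone, stood at 119000 to 167000 CPM in the non-beta libraries, and the summed level of 9 beta cell genes was 1120% to 2630% of the mean non-beta level in the beta libraries. *Nnat* went against the labels of the beta fractions. Its level ran from 46.0 to 101 CPM in libraries labelled NNAT-positive, from 66.5 to 153 CPM in the NNAT-negative ones and from 12.9 to 29.9 CPM in non-beta libraries, and it was lower in the library labelled positive in all 4 mice (log2 fold change −0.62, SE 0.17, adjusted *p*=0.444 by edgeR). The fractions are therefore named below as labelled, and each direction follows the labels.

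The promoters of those of the 10 genes that hold both letter patterns linked to the acinar factors are shown first. The patterns were CACCTG, the core of an E-box of the kind that PTF1A binds with its partner, and TTTCCC, the TC-box read by RBPJL, each searched on both strands. Matches of the 2 patterns can share 1 base, and none did in the promoters printed. Promoters were the 250 bases before each RefSeq start in GRCm38.p6, and 9 of the 10 genes had an entry (not *Clps*). CACCTG was found in 6 of the 9 and in 17.2% of all 32851 promoters, TTTCCC in 6 of the 9 and in 21.9% of all, and both in 4 of the 9 and in 3.61% of all. The 4 promoters with both are printed from 5′ to 3′ on the strand of the gene, with the matched letters in capitals.
Prss2, chr6:41521526-41521775, plus strand: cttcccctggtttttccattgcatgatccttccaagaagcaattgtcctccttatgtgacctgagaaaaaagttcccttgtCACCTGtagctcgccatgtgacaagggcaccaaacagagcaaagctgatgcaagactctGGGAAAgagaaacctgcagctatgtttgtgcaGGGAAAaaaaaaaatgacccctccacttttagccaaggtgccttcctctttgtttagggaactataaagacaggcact
Cela1, chr15:100687921-100688170, minus strand: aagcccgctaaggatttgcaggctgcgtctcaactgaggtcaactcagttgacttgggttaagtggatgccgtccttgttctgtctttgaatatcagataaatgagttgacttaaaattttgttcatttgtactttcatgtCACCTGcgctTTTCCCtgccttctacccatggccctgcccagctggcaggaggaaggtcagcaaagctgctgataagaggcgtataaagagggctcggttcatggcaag
Cela2a, chr4:141826006-141826255, minus strand: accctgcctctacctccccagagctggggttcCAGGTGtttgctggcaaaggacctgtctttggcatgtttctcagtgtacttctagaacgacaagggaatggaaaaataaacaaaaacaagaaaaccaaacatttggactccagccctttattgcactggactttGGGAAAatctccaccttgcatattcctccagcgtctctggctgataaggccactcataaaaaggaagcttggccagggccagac
Cel, chr2:28563404-28563653, minus strand: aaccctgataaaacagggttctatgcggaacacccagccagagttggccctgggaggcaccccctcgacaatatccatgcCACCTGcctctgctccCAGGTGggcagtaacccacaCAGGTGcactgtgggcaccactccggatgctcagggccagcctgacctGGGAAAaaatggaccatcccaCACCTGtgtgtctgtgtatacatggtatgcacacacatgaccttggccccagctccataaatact
In *Cela1* the E-box letters began 109 bases and the TC-box letters 99 bases before the start. *Cel* held the E-box letters 4 times. *Cpa1* and *Ctrb1* held only TTTCCC, *Cpb1* and *Cela3b* only CACCTG, and *Pnlip* held neither in its window, which lies at a start inside the gencode gene. Most of the *Cela2a* window also lies inside its gencode gene, whose end on the minus strand is at 141826160. The TTTCCC match of *Cela2a* falls in that part. A match describes these letters and shows no binding.

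All 10 transcripts were abundant in the 3 non-beta libraries and low in the 8 beta libraries. Together they took 2.15%, 7.53% and 6.11% of all counts in the non-beta libraries of mice 1, 2 and 3. In the beta libraries they took between 0.00129% (labelled NNAT-positive, mouse 4) and 0.26% (labelled NNAT-positive, mouse 2). For every gene the lowest non-beta library exceeded the highest beta library, by 5.59-fold to 8.48-fold (median 6.83). For 26.2% of all tested genes every beta library likewise lay below every non-beta library. In sorted bulk RNA, fewer acinar cells and less acinar RNA per cell cannot be told apart.

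**Figure D1:**
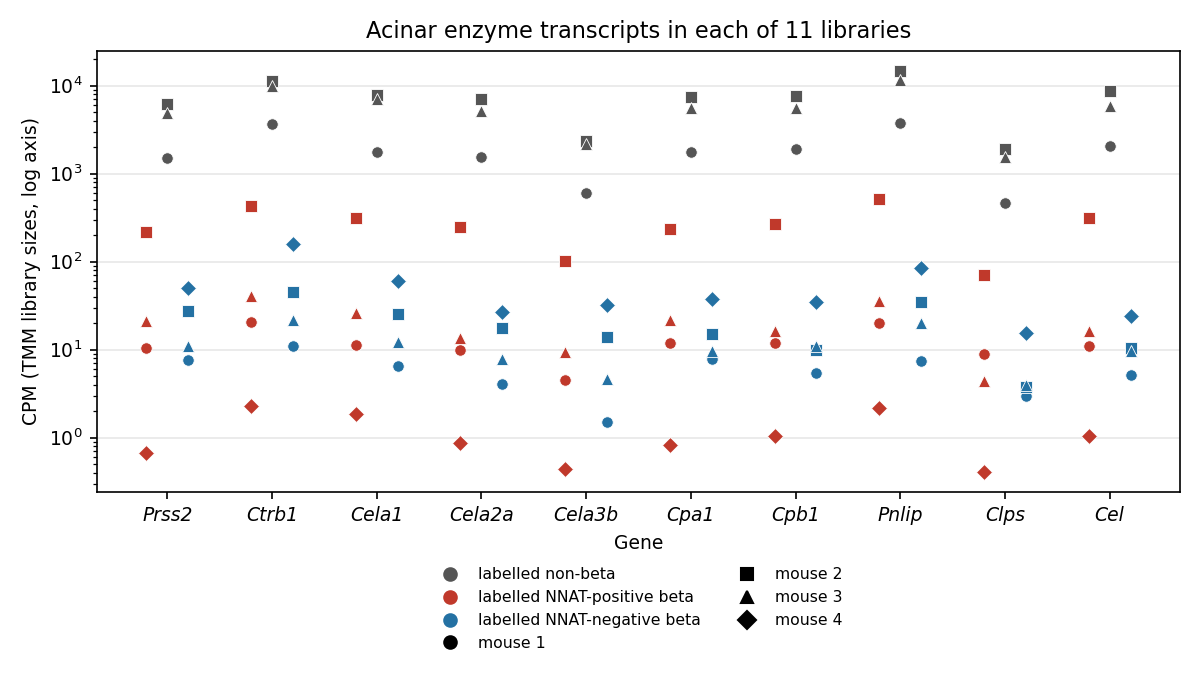
Each point is the level of 1 gene (x axis) in 1 library, in CPM on a log y axis. Colour gives the labelled fraction and shape the mouse. Within each gene all non-beta points lie above all beta points, the red square (labelled NNAT-positive, mouse 2) is the highest beta point and the red diamond (labelled NNAT-positive, mouse 4) the lowest.

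Among the proteases that cut inside proteins, *Prss2* (GRCm38 chr6:41521787-41525079, plus strand) encodes an anionic trypsinogen, whose active form switches on the other zymogens. Its level was 1510, 6180 and 4880 CPM in the non-beta libraries of mice 1, 2 and 3. Among beta cells it was 10.5, 215, 20.9 and 0.663 CPM in the NNAT-positive libraries of mice 1 to 4, and 7.65, 27.5, 11.0 and 50.3 CPM in those labelled NNAT-negative. The non-beta library of mouse 1 was the lowest of its group, and the beta fractions overlapped. *Ctrb1* (chr8:111686519-111691010, minus strand) encodes chymotrypsinogen B and had 3610, 11200 and 9850 CPM in non-beta libraries. The NNAT-positive libraries gave 20.7, 425, 40.1 and 2.26 CPM for this gene, and the NNAT-negative ones 11.0, 45.6, 21.7 and 158 CPM. The same 2 libraries, NNAT-positive of mouse 2 and NNAT-negative of mouse 4, were the highest of their groups for both genes.

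The 3 elastase-like genes of the set encode serine proteases, *Cela1* (chr15:100674421-100687921, minus strand) the one named pancreatic elastase, and *Cela2a* (chr4:141814962-141826160, minus strand) and *Cela3b* (chr4:137420999-137430540, minus strand) its relatives. *Cela1* had 1750, 7870 and 7010 CPM in the non-beta libraries, against 11.2, 313, 25.9 and 1.85 CPM in those labelled NNAT-positive and 6.59, 25.5, 12.3 and 60.0 CPM in those labelled NNAT-negative. *Cela2a* stood at 1540, 6950 and 5120 CPM, 9.86, 248, 13.5 and 0.868 CPM, and 4.10, 17.5, 7.85 and 26.5 CPM in the same order. *Cela3b* was the least abundant elastase with 606, 2320 and 2170 CPM in non-beta libraries, 4.55, 101, 9.42 and 0.434 CPM in NNAT-positive and 1.5, 13.9, 4.69 and 32.4 CPM in NNAT-negative libraries. In all 3 the order of the libraries labelled NNAT-positive was mouse 2, 3, 1 and 4. *Cela2a* overlaps *Ctrc*, a chymotrypsin gene on the same strand, over 305 exon bases and *Casp9* on the opposite strand over 94, and 14.3% of its 75-base windows occur in their transcripts. *Cela3b* shares 11.4% of its windows with *Cela3a*, so that counts of both genes are uncertain to that extent.

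The carboxypeptidases take amino acids off the end of a peptide, *Cpa1* (chr6:30639218-30645363, plus strand) preferring bulky neutral and *Cpb1* (chr3:20248264-20275733, minus strand) basic ones. *Cpa1* had 1740, 7450 and 5580 CPM in the non-beta libraries of mice 1 to 3. In beta libraries it had 11.9, 235, 21.9 and 0.822 CPM (labelled NNAT-positive, mice 1 to 4) and 7.85, 15.0, 9.60 and 37.8 CPM (labelled NNAT-negative). *Cpb1* had 1910, 7700 and 5540 CPM in non-beta libraries, 11.9, 264, 16.3 and 1.03 CPM in NNAT-positive and 5.36, 9.96, 11.0 and 34.7 CPM in NNAT-negative libraries. Neither gene shared a 75-base window with another gene. Both were highest among beta libraries in the NNAT-positive library of mouse 2 and lowest in that of mouse 4.

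The remaining genes serve fat digestion. *Pnlip* (chr19:58652498-58681788, plus strand) encodes pancreatic triglyceride lipase and had the highest CPM of the set in non-beta libraries, 3770, 14700 and 11600. Its beta values were 19.9, 510, 36.0 and 2.19 CPM (labelled NNAT-positive) and 7.44, 34.3, 20.2 and 83.6 CPM (labelled NNAT-negative). *Clps* (chr17:28558149-28560766, minus strand) encodes colipase, the cofactor that holds this lipase on bile-coated fat droplets. It stood at 465, 1910 and 1540 CPM in non-beta libraries, at 8.88, 70.1, 4.35 and 0.411 CPM in the NNAT-positive and at 2.97, 3.71, 3.91 and 15.5 CPM in the NNAT-negative libraries. Unlike the other members, *Clps* was higher in the NNAT-positive library of mouse 1 than in that of mouse 3. *Cel* (chr2:28555795-28563403, minus strand) encodes the bile salt-activated lipase and had 2080, 8620 and 5830 CPM, 11.0, 314, 16.2 and 1.03 CPM, and 5.19, 10.3, 9.52 and 23.9 CPM in the 3 groups.

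Per length of exon (RPKM, CPM per kilobase), *Ctrb1* had the highest mean non-beta level, 9380 ± 4630 RPKM (SD, *n*=3). It was followed by *Prss2* (5140 ± 2960), *Pnlip* (4580 ± 2580), *Cpa1* (2810 ± 1660), *Cela2a* (2630 ± 1600), *Cel* (2620 ± 1560), *Cela1* (2400 ± 1440), *Clps* (2130 ± 1230), *Cpb1* (1540 ± 891) and *Cela3b* (1020 ± 570). These SDs are mostly the spread between mice that the genes share. Within each of the 3 non-beta libraries *Ctrb1* exceeded *Prss2* by 1.69-fold to 2.22-fold, and *Prss2* exceeded *Pnlip* by only 1.08-fold to 1.13-fold. *Cela2a* and *Cel*, *Cel* and *Cela1*, and *Cela1* and *Clps* changed places between mice, and the other neighbours kept their order in all 3. *Ctrb1* and *Prss2* also led per length in the beta libraries, with 139 ± 231 and 75.7 ± 126 RPKM in those labelled NNAT-positive and 67.4 ± 77.2 and 29.6 ± 23.9 RPKM in those labelled NNAT-negative (SD, *n*=4 each). The SD exceeded the mean for both genes in the first group, where the library of mouse 2 holds most of the total.

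Against non-beta cells, all 10 genes were lower in both beta fractions. In the libraries labelled NNAT-positive the log2 fold changes ran from −7.33 for *Pnlip* (SE 1.32, adjusted *p*=0.00113 by edgeR) to −6.58 for *Clps* (SE 1.21, adjusted *p*=0.00125). The call, an edgeR adjusted *p* below 0.01 with a more than 2-fold change, was met by 10 of 10 members, and 15.5% of all tested genes were called lower. In the libraries labelled NNAT-negative they ran from −8.49 for *Cel* (SE 1.62, adjusted *p*=0.00153 by edgeR) to −7.55 for *Prss2* (SE 1.59, adjusted *p*=0.00284). Again 10 of 10 were called, and 17.1% of all tested genes were called lower. Without mouse 1 the calls were 3 and 0 of 10 in the 2 comparisons, without mouse 3 they were 0 and 0, and without mouse 2 they were 10 and 8, with the directions unchanged and edgeR adjusted *p* values of at most 0.0485. These comparisons, and the one between the beta fractions, share libraries.

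As a percentage of the mean non-beta level, the 10 genes took narrow ranges within a library and wide ones between libraries. In the libraries labelled NNAT-positive the median gene stood at 0.239% (range 0.198% to 0.681%) in mouse 1, 5.3% (4.78% to 5.92%) in mouse 2, 0.402% (0.293% to 0.555%) in mouse 3 and 0.0211% (0.0158% to 0.0334%) in mouse 4. In those labelled NNAT-negative it stood at 0.112% (0.0741% to 0.228%), 0.363% (0.187% to 0.821%), 0.22% (0.173% to 0.3%) and 0.957% (0.435% to 1.92%) in mice 1 to 4. The highest beta library was 169 to 324 times the lowest, depending on the gene. The lowest level lay far above the detection floor, with 18 to 99 counts per gene in the NNAT-positive library of mouse 4. Averaged over the libraries of a fraction, the median gene was at 1.49% (SD between libraries 2.54, *n*=4) in NNAT-positive and 0.416% (SD 0.377, *n*=4) in NNAT-negative libraries. Without the NNAT-positive library of mouse 2 the first value was 0.234%, and without the NNAT-negative library of mouse 4 the second was 0.243%.

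**Figure D2:**
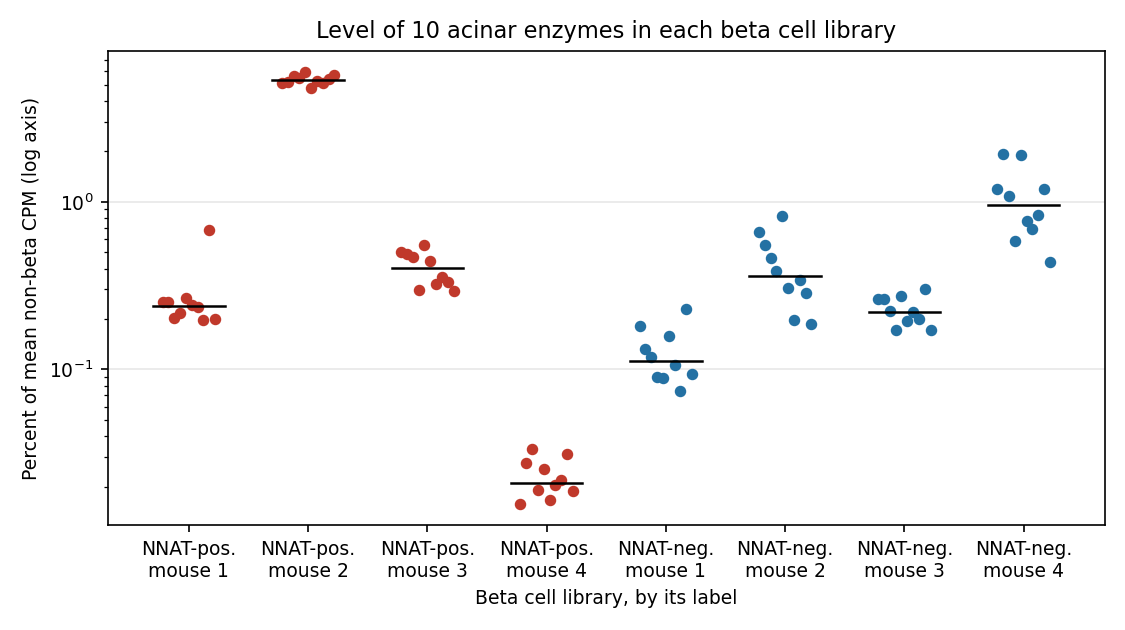
Points are the 10 genes in each beta library (x axis), as a percentage of the mean non-beta CPM on a log y axis, and bars are medians. The genes of a library lie close together. The library labelled NNAT-positive of mouse 2 has its median at 5.3% and that of mouse 4 at 0.0211%.

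Between the beta fractions the direction depended on the mouse. In mouse 1 the library labelled NNAT-positive had 1.37 to 3.03 times the level of the NNAT-negative one (median 2.17), in mouse 2 it had 7.21 to 30.5 times (median 14.6) and in mouse 3 it had 1.11 to 2.29 times (median 1.82), each with 10 of 10 genes higher. In mouse 4 the NNAT-negative library had 23.3 to 76.0 times the level of the NNAT-positive one (median 37.9), with 0 of 10 genes higher in NNAT-positive. The log2 fold changes over all mice ran from 0.50 for *Prss2* (SE 1.22) to 1.21 for *Cel* (SE 1.32), each smaller than its SE. None of the 10 was called by edgeR (adjusted *p* 0.955 to 0.995), 0 had an unadjusted *p* below 0.05, and DESeq2 called 0 with 0 below that level. Of all tested genes, 0.0459% were called in either direction.

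The sign of this difference rested on single libraries. Without the NNAT-positive library of mouse 2 all 10 log2 fold changes turned negative, from −0.73 for *Prss2* (SE 1.09) to −0.14 for *Cel* (SE 0.91), with edgeR adjusted *p* values of 1.0. Leaving out the whole of mouse 2 gave −0.87 to −0.38. Without the NNAT-negative library of mouse 4 the changes were 1.60 for *Prss2* (SE 0.55) to 2.49 for *Cel* (SE 0.81). All 10 then had an unadjusted *p* below 0.05 and none passed the adjusted threshold (edgeR adjusted *p* 0.606 to 0.811). Without the replicate block, the unpaired fit gave a median of 1.85 in place of 0.95, and called 0 of 10.

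**Figure D3:**
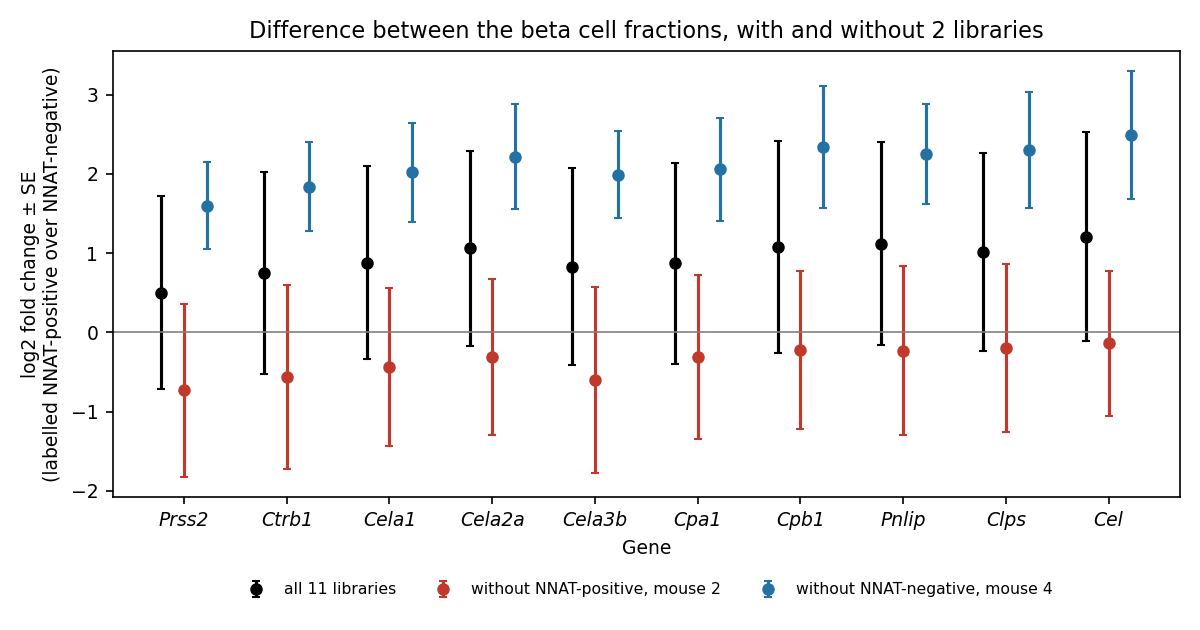
Points are log2 fold changes of libraries labelled NNAT-positive over NNAT-negative for each gene (x axis), and bars are SE of the edgeR fit. Black shows all 11 libraries, red the fit without the NNAT-positive library of mouse 2, where all 10 are below 0, and blue the fit without the NNAT-negative library of mouse 4, where all 10 are above 0.

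The NNAT-positive library of mouse 2 stood apart on the high side for the whole set, and that of mouse 4 on the low side. For each of the 10 genes the next lowest beta library exceeded that of mouse 4, by 3.39-fold to 11.5-fold (median 4.95). The NNAT-positive library of mouse 2 exceeded the next highest beta library by 2.68-fold (*Ctrb1*) to 13.1-fold, and by more than 4-fold for 8 of the 10 genes. Over all tested genes with at least 50 counts there, only 27 exceeded every other beta library by more than 4-fold, and 18 of these were in the acinar lists. The other 9, chosen after their values were seen, were *Dmbt1*, *1810028F09Rik*, *Slc38a3*, *Homer2*, *Ulbp1*, *Vip*, *Slc39a5*, *Csrnp3* and *Gm36026*, and 7 of them were higher in mean non-beta cells than in this library. In the remaining beta libraries between 0 and 8 genes met that rule, with 1 acinar gene among the 2 in the NNAT-negative library of mouse 4. The rule marks high levels only, so it could not mark the low NNAT-positive library of mouse 4. In the NNAT-positive library of mouse 2, the 10 genes lay between 3.16% (*Cpa1*) and 4.33% (*Cela3b*) of the non-beta library of the same mouse. In the NNAT-negative library of mouse 2 the same measure ran from 0.119% (*Cel*) to 0.601% (*Cela3b*).

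Other secretory genes of the acinar cell followed the same libraries. Of 12 further acinar proteases, 8 passed the filter and 8 of 8 were called lower in both beta fractions. Of all tested genes, 15.5% were called lower in NNAT-positive and 17.1% in NNAT-negative libraries. The filter worked by group, so list genes near 0 in beta libraries were tested only because they were high in non-beta libraries. Their calls were largely fixed in advance, as for *Prss3* with 5, 40, 0 and 0 counts in NNAT-positive and 0, 0, 0 and 7 in NNAT-negative libraries. *2210010C04Rik*, a trypsinogen gene, had 1610 to 6400 CPM in the non-beta libraries, 254 CPM in the NNAT-positive library of mouse 2 and 0.640 CPM in that of mouse 4. Of 11 lipases, amylases and a nuclease, 7 were tested and 7 were called lower in both, and 3 had no count in any library. *Pnliprp1*, a lipase-related protein gene, had 865 to 3790 CPM in non-beta libraries, and *Rnase1*, a pancreatic ribonuclease gene, 482 to 2090 CPM. All 9 granule proteins and inhibitors were called lower in both fractions, among them *Zg16*, *Gp2* and *Sycn*, which belong to the zymogen granule. In the *Reg* family, secreted lectin-like proteins, 3 of the 4 tested genes were called lower in both, and *Reg1* had 197 to 537 CPM in non-beta libraries. Between the beta fractions, of the 28 tested genes of these lists, edgeR called 0 with 1 at an unadjusted *p* below 0.05 (*Amy1*, an amylase gene, named after its values were seen), and DESeq2 called 0 with 4 at that level.

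In the NNAT-positive library of mouse 2 the summed levels of these lists were 5.34% (proteases), 4.77% (lipases, amylases and nuclease), 5.4% (granule proteins) and 3.43% (*Reg* family) of the mean non-beta level, beside 5.28% for the 10 enzymes. In the NNAT-negative library of mouse 4 they were 1.54%, 0.944%, 1.66% and 3.22%, beside 1.03%. In the NNAT-positive library of mouse 4 they were 0.0693%, 0.0577%, 0.0297% and 0.0845%, beside 0.0227%.

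Genes that define other cell types of the islet preparation did not rank the libraries in this way. Alpha cell markers summed to 1.97% of mean non-beta in the NNAT-positive library of mouse 2, the lowest of its group (1.97% to 2.84%), and to 1.15% to 1.77% in NNAT-negative libraries. *Gcg* held 2200 of the 2920 CPM of this sum. Without it, a sum added after seeing the data, the library was at 13.7%, within the group's 12.2% to 14.3% (NNAT-negative 11.2% to 13.7%). Delta and PP cell markers were at 17.2% in the NNAT-positive library of mouse 2, within the group's 12.1% to 20.9%, against 4.48% to 8.69% in NNAT-negative libraries. Of these 6 genes 2 were called higher in libraries labelled NNAT-positive, *Ppy* and *Pyy*, and none of the 10 enzymes was. Endothelial markers were at 0.454% in the NNAT-positive library of mouse 2, within 0.353% to 0.585% over its group and 0.282% to 0.644% over the NNAT-negative libraries, with 4 of 6 genes at 0 counts there including *Plvap* and *Kdr*. Leukocyte markers were at 3.82% with 2 of 7 at 0 (ranges 2.93% to 5.25% and 3.2% to 4.6%). Stellate and fibroblast markers were at 0.0359% with 2 of 6 at 0 (ranges 0.0267% to 0.0891% and 0.0011% to 0.0615%). Single genes held most of some sums in that library, *Esam* 8.04 of 8.32 CPM of the endothelial and *C1qa* 61.2 of 64.5 CPM of the leukocyte markers. *C1qa* stood at 31.6% to 53.4% of mean non-beta in every beta library. Without these genes, a sum added after seeing the data, endothelial markers were at 0.0164% (NNAT-positive libraries 0.0149% to 0.329%, NNAT-negative 0.00521% to 0.0584%) and leukocyte markers at 0.214%, the lowest of their group (0.214% to 1.09%, NNAT-negative 0.00882% to 0.432%). The part of acinar cells or their RNA in the beta libraries was not tested.

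**Figure D4:**
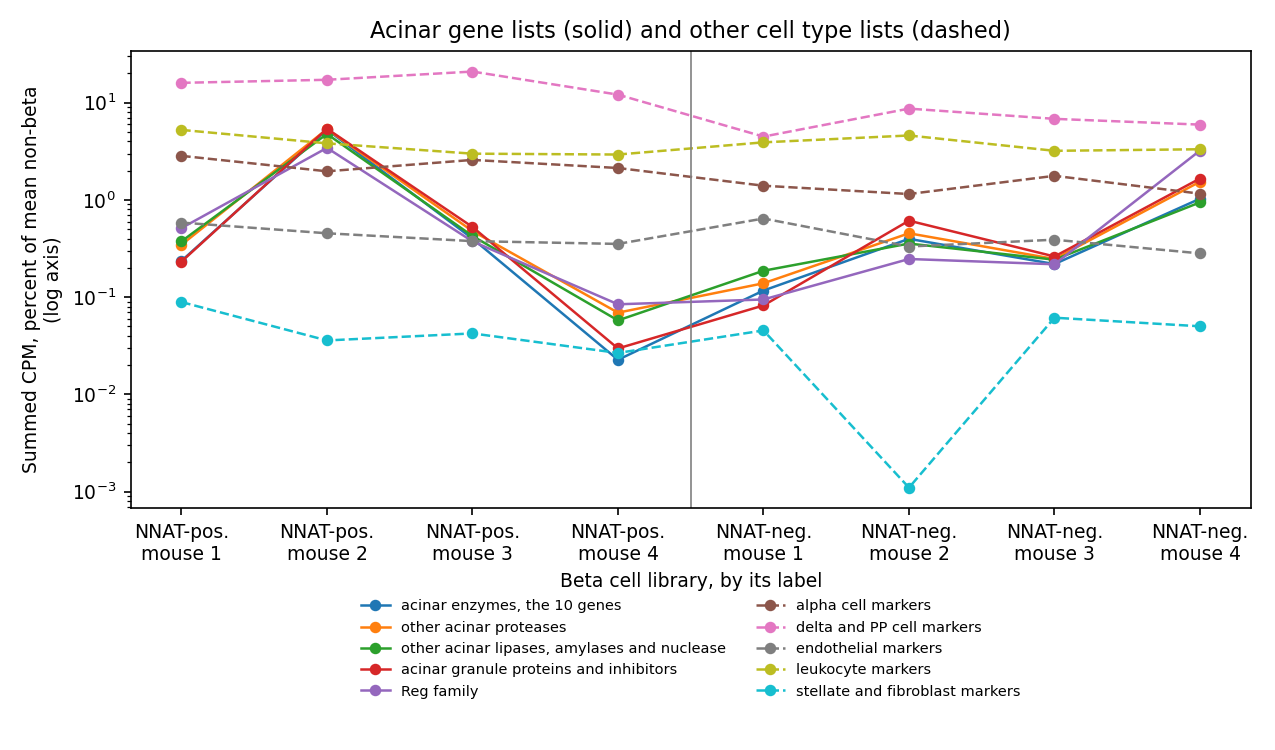
Summed CPM of each gene list in each beta library (x axis), as a percentage of the mean non-beta sum on a log y axis. Solid lines are 5 lists of acinar secretory genes, which peak in the NNAT-positive library of mouse 2 at 3.43% to 5.4%, and dashed lines are lists of other cell types, which do not. The list of acinar transcription factors and membrane proteins, the duct list and the beta list are not drawn. The lowest stellate and fibroblast value, 0.0011%, rests on few counts.

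Acinar transcription factors and membrane proteins were near the floor in beta libraries, with exceptions. *Ptf1a*, a subunit of the factor that drives enzyme genes, had 17, 118 and 147 counts in the non-beta libraries, 1 in the NNAT-positive library of mouse 2 and 0 in the other beta libraries. *Rbpjl*, its partner, had 70, 122 and 152 counts in non-beta libraries, 3 in the NNAT-positive library of mouse 2, 13 in the NNAT-negative library of mouse 4 and 0 in the rest. *Cckar*, the cholecystokinin receptor that triggers secretion, had 14 counts against 1590 in the non-beta library of the same mouse, which is 0.797% of its level (exact Poisson interval 0.436% to 1.34%, for counting error only). For *Aqp12*, an acinar aquaporin, the corresponding share was 1.68% (0.942% to 2.78%), and both intervals lie below the 3.16% to 4.33% of the 10 enzymes. *Ptf1a* at 0.767% (0.0194% to 4.27%), *Rbpjl* at 2.23% (0.459% to 6.51%), *Aqp8*, another aquaporin, at 1.56% (0.189% to 5.64%) and *Nr5a2*, a nuclear receptor of acinar cells, at 3.13% (1.98% to 4.69%) had intervals that overlapped the range of the enzymes. *Gata4*, a zinc-finger factor, was above it at 11.7% (7.76% to 16.9%), with 12 to 43 counts in every beta library and 102 to 217 in non-beta libraries. In NNAT-positive libraries of mice 1 to 4 *Nr5a2* stood at 0.212%, 4.15%, 1.77% and 2.41% of mean non-beta. In the NNAT-negative ones it stood at 0%, 3.9%, 1.88% and 0.823%. *Cckar* had 0, 14, 0 and 7 counts in NNAT-positive and 0, 10, 0 and 9 in NNAT-negative libraries. *Aqp8* had 0, 2, 0 and 5 counts in NNAT-positive and 0 in NNAT-negative libraries. *Aqp12* had 0, 15, 8 and 0 counts in NNAT-positive and 0, 0, 0 and 5 in NNAT-negative libraries. On these low counts, *Nr5a2*, *Gata4*, *Cckar* and *Aqp8* did not rank the beta libraries as the enzymes did. The few counts of *Ptf1a*, *Rbpjl* and *Aqp12* lay mostly in the NNAT-positive library of mouse 2 and the NNAT-negative library of mouse 4, where the enzymes were highest. Without *Bhlha15*, which is described next, the summed level of the list was 3.27% of mean non-beta in the NNAT-positive library of mouse 2, the highest of its group (1.63% to 3.27%), against 1.32% to 2.11% in NNAT-negative libraries.

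*Bhlha15*, which encodes the secretory-cell factor MIST1, went the other way, with 59.5 to 107 CPM in beta and 12.9 to 23.4 CPM in non-beta libraries (log2 fold changes 2.06 and 2.00, SE 0.21 each, called higher in both comparisons by edgeR with adjusted *p* 2.1e-05 and 2.3e-05). With it the list stood at 77.0% in the NNAT-positive library of mouse 2, the lowest of its group. Of the 8 genes of this list, 5 were called lower in NNAT-positive and 6 in NNAT-negative libraries against non-beta cells. Of all tested genes, 15.5% and 17.1% were called lower in these comparisons. *Ptf1a* and *Rbpjl*, near 0 in most beta libraries, passed the filter only through the non-beta libraries. Of 9 duct cell markers, 6 were called lower in both beta fractions. *Krt19*, a duct keratin, stood at 2.23% to 14.8% and the duct factor *Sox9* at 0% to 5.74% of mean non-beta in beta libraries, while *Krt7* at 173% to 228% and *Prom1* at 144% to 243% were higher there and held the summed level at 62.4% to 78.3%.

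By correlation of log2 CPM with the mean of the 10 genes over the 11 libraries, the most alike genes outside the set were *2210010C04Rik* (*r*=0.998), *Pnliprp1* (0.997), *Ctrl* (0.997), *Rnase1* (0.996), *Zg16* (0.995), *Dmbt1* (0.993), *Pnliprp2* (0.993), *Try4* (0.991), *Tff2* (0.99) and *Sycn* (0.988). The points share depth and the contrast of beta with non-beta libraries, and the lowest member had *r*=0.993. Over the 8 beta libraries alone the leading genes were *2210010C04Rik* (0.993), *Pnliprp1* (0.988), *Ctrl* (0.985), *Rnase1* (0.979) and *Zg16* (0.978), followed by *Try4*, *Dmbt1*, *Pnliprp2*, *Sycn* and *Amy2b* (0.953), where the lowest member had 0.964. *Dmbt1*, which encodes a secreted mucin-like protein, was the only one of these outside the acinar lists.

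The proportions among the 10 transcripts were nearly the same in the 3 non-beta libraries and looser in the beta libraries. *Pnlip* made up 19.6% to 19.9% of their joint counts in non-beta libraries and 12.5% to 19.0% in beta libraries. *Clps* made up 2.45% to 2.6% in non-beta libraries and 7.38% in the NNAT-positive library of mouse 1. *Ctrb1* made up 15.0% to 19.0% in non-beta libraries and 30.3% in the NNAT-negative library of mouse 4. The NNAT-positive library of mouse 2 had *Clps* at 2.6%, *Ctrb1* at 15.8% and *Pnlip* at 18.9%.

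*Ctrc*, the chymotrypsin gene that overlaps *Cela2a*, differed by mouse beside *Ctrb1*, a comparison chosen after its values were seen. In mouse 1 it gave 10151 counts in the non-beta library, or 5.74% of the pair (exact binomial 95% interval 5.63% to 5.85%), 12 counts or 1.6% (0.83% to 2.78%) in the NNAT-positive and 14 counts or 4.17% (2.3% to 6.89%) in the NNAT-negative library. In the non-beta libraries of mice 2 and 3 it gave 0.204% (0.19% to 0.218%) and 0.162% (0.149% to 0.175%). Their NNAT-positive libraries had 0.152% (0.1% to 0.221%) and 0.13% (0.0158% to 0.47%), and their NNAT-negative libraries had 0 counts, with exact upper limits of 0.246% and 0.471% of the pair (a floor of 3 counts would be 0.201% and 0.384%). In mouse 4 the NNAT-negative library gave 287 counts or 4.72% (4.2% to 5.28%) and the NNAT-positive 1 count beside 99 of *Ctrb1*. The beta libraries of mice 2 and 3 thus had low shares like the non-beta library of their own mouse, and the 2 of mouse 1 had shares above those of mice 2 and 3. Intervals cover counting error only.

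**Figure D5:**
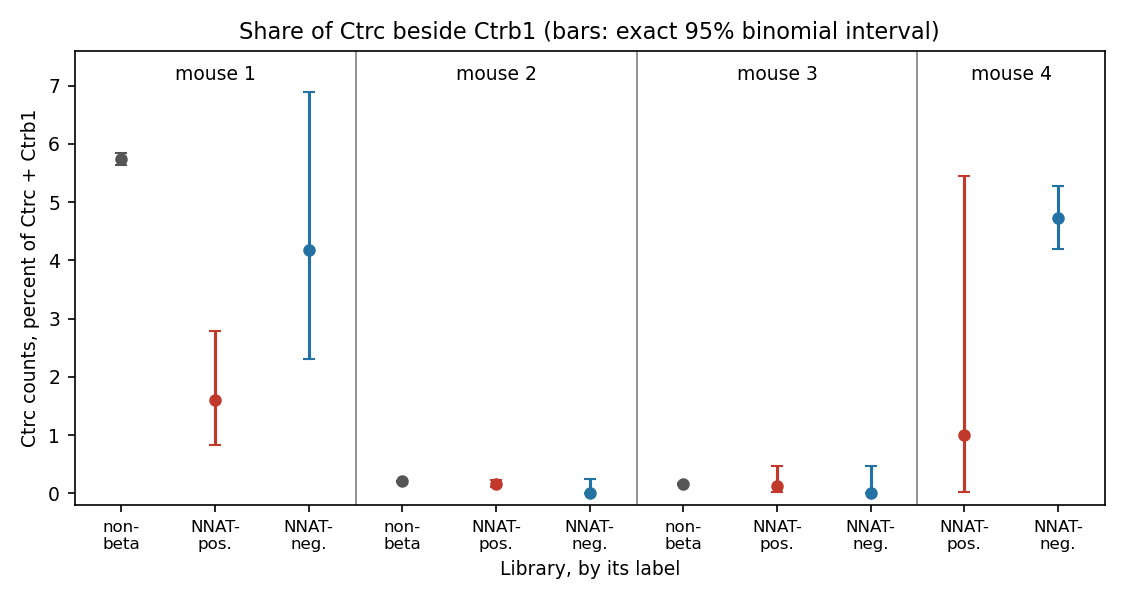
Points are *Ctrc* counts as a percentage of *Ctrc* plus *Ctrb1* in each library (x axis, grouped by mouse), with exact 95% binomial intervals as bars. Grey marks non-beta, red NNAT-positive and blue NNAT-negative libraries as labelled. Mouse 1 and the NNAT-negative library of mouse 4 lie between 1.6% and 5.74%, and all libraries of mice 2 and 3 lie at or below 0.204%.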

How the data were processed

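The authors aligned paired reads of 75 bases from poly(A) RNA to mm10 with STAR 2.7.1a, counted them on gencode release 25 and deposited raw counts for 55401 genes. The strand setting of the counting is not given in the sources used here. Rows without a symbol (202) held at most 0.847% of a library. Counts were tested with edgeR 4.0.16 (R 4.3.3) by the quasi-likelihood test after TMM and filterByExpr, which kept 17424 genes, with all 11 libraries and the mouse as a block, and Benjamini-Hochberg adjustment over all tested genes. SEs were taken as the ratio of a log2 change to the root of its *F* value. Log2 CPM used a prior count of 2. Replicate numbers came from the labels and stand for mice in the study's text, and same-mouse beta libraries deviated together (mean *r*=0.314, lowest 0.182, 4 pairs). Positions, exon lengths and overlaps came from gencode release 21 (GRCm38), matched for 55141 identifiers. Alternatives used DESeq2 1.42.0, other size factors, no filter, no block, fewer libraries and another threshold. The fits were tested on simulated data. The members and gene lists were chosen with earlier results of these data known. Named genes were all members, the leading genes of each list by mean non-beta CPM, the 10 most alike genes, genes overlapping a member and *Nnat*. Other genes were named after their values were seen, among them those standing apart in 1 library, *Amy1* and single genes of the marker and acinar factor lists. The libraries left out singly were chosen after seeing the data. Some results for genes of the lists are not reported here.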

Additional observations from a re-analysis of the deposited data

Results flagged for a closer look

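The library labelled NNAT-positive of mouse 2 lay far above the other 3 of its group for all 10 genes. Its gap to the next library, as a share of the range of the group, was 0.905 (*Prss2*), 0.91 (*Ctrb1*), 0.923 (*Cela1*), 0.949 (*Cela2a*), 0.91 (*Cela3b*), 0.91 (*Cpa1*), 0.942 (*Cpb1*), 0.933 (*Pnlip*), 0.878 (*Clps*), 0.952 (*Cel*), all above Dixon's 95% critical value for 4 samples. The summed levels of the acinar secretory lists gave 0.928 for the 10 enzymes, 0.922 for the other proteases, 0.922 for lipases, amylases and nuclease, 0.907 for granule proteins and 0.872 for the *Reg* family. The list of acinar transcription factors and membrane proteins, with *Bhlha15*, gave 0.384 with this library the lowest, and was not marked. No list of another cell type passed the critical value in this group. Among the libraries labelled NNAT-negative, that of mouse 4 lay apart for *Clps* (0.925) and for the sum of the *Reg* family (0.951). In all, 17 of 46 groups of values were marked, where chance marks about 1 in 20, and the genes and lists are not independent of each other. The gaps were taken on CPM and not on a log scale, which was not tried. On CPM a spread this wide (for the 10 genes the highest beta library was 169 to 324 times the lowest) favours marking high libraries.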

How the results depend on the processing

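The mouse block, the tool, the size factors, the low-count filter, the libraries in the fit, the totals without *Ins1* and *Ins2* and a threshold of 0.05 changed no call of the 10 genes in any comparison and no direction. In the fits with no replicate block, edgeR called 0, 10 and 10 of 10 genes between the beta fractions and in NNAT-positive and NNAT-negative libraries against non-beta, as in the paired fits. Leaving out a mouse or a library moved the calls against non-beta cells from 0 to 10 of 10 in both comparisons, with 2 non-beta libraries in place of 3 where mouse 1, 2 or 3 was left out. Between the beta fractions 0 genes were called in every such fit, and the log2 fold changes ranged as follows: *Prss2* −0.87 to 1.60, *Ctrb1* −0.65 to 1.84, *Cela1* −0.59 to 2.02, *Cela2a* −0.45 to 2.22, *Cela3b* −0.63 to 1.99, *Cpa1* −0.63 to 2.06, *Cpb1* −0.60 to 2.34, *Pnlip* −0.38 to 2.25, *Clps* −0.56 to 2.30, *Cel* −0.47 to 2.49. The negative ends came from the fits without mouse 2 or its NNAT-positive library, and the cause was not tested. The mean percentage of non-beta for the median gene ranged from 0.234% to 2.02% in NNAT-positive and from 0.243% to 0.552% in NNAT-negative libraries when a mouse or library was left out. With the median over libraries it was 0.339% and 0.286%, and against the non-beta library of the same mouse 1.51% and 0.283%. With 3 to 4 mice per group the SEs of 1.22 to 1.34 on the log2 scale limit what could be detected between the beta fractions.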

Other observations

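*Try4*, a trypsinogen gene, made up 36.0% (exact binomial 95% interval 35.7% to 36.3%) of the pair with *Prss2* in the non-beta library of mouse 1, against 17.1% (17.0% to 17.3%) and 22.6% (22.4% to 22.7%) in those of mice 2 and 3, a comparison chosen after its values were seen. In the NNAT-positive libraries of mice 1, 2 and 3 it made up 41.7% (37.8% to 45.6%), 21.3% (20.5% to 22%) and 20.8% (18.3% to 23.5%), and in that of mouse 4 21.6% (9.83% to 38.2%) on 8 counts. In the NNAT-negative libraries it was 20.6% (16.0% to 25.8%), 15.1% (13% to 17.4%), 20.6% (17.1% to 24.4%) and 30% (28.3% to 31.8%) for mice 1 to 4. Trypsinogen genes are near copies of each other, and *Prss2* shares 0.945% of its 75-base windows with *Try10*.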
